A study of Mus musculus with 21 samples.

Results

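The genes described here are 10 smooth muscle contractile genes: Acta2, Actg2, Tagln, Cnn1, Smtn, Lmod1, Myh11, Myl9, Mylk and Des. They were taken by symbol, not by their measured values, and all 10 were found among 45706 gene rows and among the 15230 genes with enough counts to be tested. They were followed in cultured mouse mammary fibroblasts, in 21 RNA sequencing libraries that form 7 groups of 3.

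NF stands for the fibroblast line NF1, derived from normal mammary tissue (strain FVB/n), and CAF for the cancer-associated fibroblast line CAF1. CAF1 was derived from a mammary carcinoma of the MMTV-PyMT mouse, whose mammary epithelium expresses a viral oncogene. Each origin is represented by a single numbered line, so origin and line cannot be told apart. All cells were grown in DMEM with 10% FBS, and all received 100 nM of a pooled siRNA. The pool was a control (siCtr), one against Hsp90aa1, the gene of an HSP90 chaperone that stress induces, or one against Hsp90ab1, the gene of its constitutive counterpart. NF with siCtr received either vehicle or TGFb1 at 5 ng/mL, and NF with siHsp90aa1 or siHsp90ab1 received TGFb1. CAF with siCtr, siHsp90aa1 or siHsp90ab1 were measured with vehicle. TGFb1 or vehicle was added 5 h after transfection and RNA was taken at 48 h. Whether replicates came from separate cultures or animals is not in the labels, so the p-values speak only of the spread among libraries, which may be technical.

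In smooth muscle, contraction comes from myosin heavy chains that pull on filaments of muscle actin. Myosin light chain kinase starts the cycle by phosphorylating the regulatory light chain, and calponin, transgelin, smoothelin and leiomodin bind, stabilise or nucleate the actin filaments. Serum response factor (SRF) binds CArG boxes in many of these genes together with myocardin or the myocardin-related factors. Fibroblasts that take up part of this set, above all Acta2, are called myofibroblasts, and TGFb1 is a well-known inducer of that state in wounds and tumours.

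CArG boxes are shown because they are the sites through which SRF acts on this gene set. A CArG box has 2 C, 6 bases of A or T, and 2 G. RefSeq promoter windows of GRCm38.p6, from 250 bases before to 50 bases after a RefSeq start, were matched for 7 of the 10 genes, which leaves Tagln, Actg2 and Myh11 named only. The windows of Mylk (chr16:34784700-34784999) and Smtn (chr11:3539243-3539542) lie inside the genes as given below. The Acta2 window (chr19:34255324-34255623) lies mostly inside its gene as given below, and so do both Acta2 boxes, whose positions count from the RefSeq start. The Mylk window is far from that gene's first base at 34745210. Both strands were searched, and each box is printed in capitals with 10 bases on either side, 5′ to 3′ on the gene's strand.
Myl9 box at -161 to -152, chr2:156775293-156775322, plus strand: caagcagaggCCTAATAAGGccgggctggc
Myl9 box at -99 to -90, chr2:156775355-156775384, plus strand: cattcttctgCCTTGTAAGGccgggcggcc
Acta2 box at -84 to -75, chr19:34255438-34255467, minus strand: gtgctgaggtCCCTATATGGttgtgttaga
Acta2 box at -34 to -25, chr19:34255388-34255417, minus strand: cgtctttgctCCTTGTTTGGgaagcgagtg
The upper Myl9 box had only A and T between its C and G pairs, and an exact box of that kind was present in 1.63% of all 32851 windows and in 1 of the 7 matched genes. The other 3 boxes hold 1 G or C in the centre, and boxes with at most 1 such base were present in 9.98% of windows and in 2 of the 7 genes. The letters CATTCC, the core of the MCAT element read by TEAD factors, were present on either strand in 14.7% of windows and in 4 of the 7 genes, Acta2, Lmod1, Smtn and Mylk. These matches are descriptions of letters, and binding was not measured.

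Totals per library were 35.1 to 70.4 in units of 1e+06 estimated counts, and 1.67% to 4.3% of counts were mitochondrial. Hsp90aa1 was left at 12.4% (NF) and 10% (CAF) of its control level by its own siRNA, and Hsp90ab1 at 13.3% and 9.95% by its own. With siHsp90ab1, Hsp90aa1 was also down to 48.1% and 47.6%. The summed level of 8 fibroblast markers was 5714 to 21287 normalised CPM (counts scaled to a common library size) in NF and 35706 to 57639 CPM in CAF. Col1a1 made up a large part of it, at 2475 CPM in NF with vehicle and 19809 CPM in CAF with siCtr. Dcn went the other way, at 397 and 16.7 CPM. Of the 8 markers 6 were called higher and 1 lower in CAF between these groups, where 31.6% of all genes were higher and 30% lower. The fibroblast genes Lum and Fap were low in both lines, with mean levels of 0.0348 and 0.104 CPM in NF with vehicle and 0.396 and 0.744 CPM in CAF with siCtr, and Thy1 was at 0.285 and 189.7 CPM. Markers of cells that share contractile genes were present at lower sums. Pericyte markers (8 genes, mostly Pdgfrb, with Kcnj8 at 0) summed to 200.5 to 366 CPM in NF and 300.3 to 443 CPM in CAF. Myoepithelial markers (6 genes) summed to 1.81 to 5.00 CPM and 15 to 41.0 CPM, and luminal epithelial markers (6 genes) to 0.282 to 1.04 CPM and 5.02 to 22.1 CPM. Endothelial (6 genes) and skeletal muscle markers (8 genes) were at or under 15 and 0.631 CPM, and immune markers (6 genes) at or under 8.50 CPM.

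**Figure D1:**
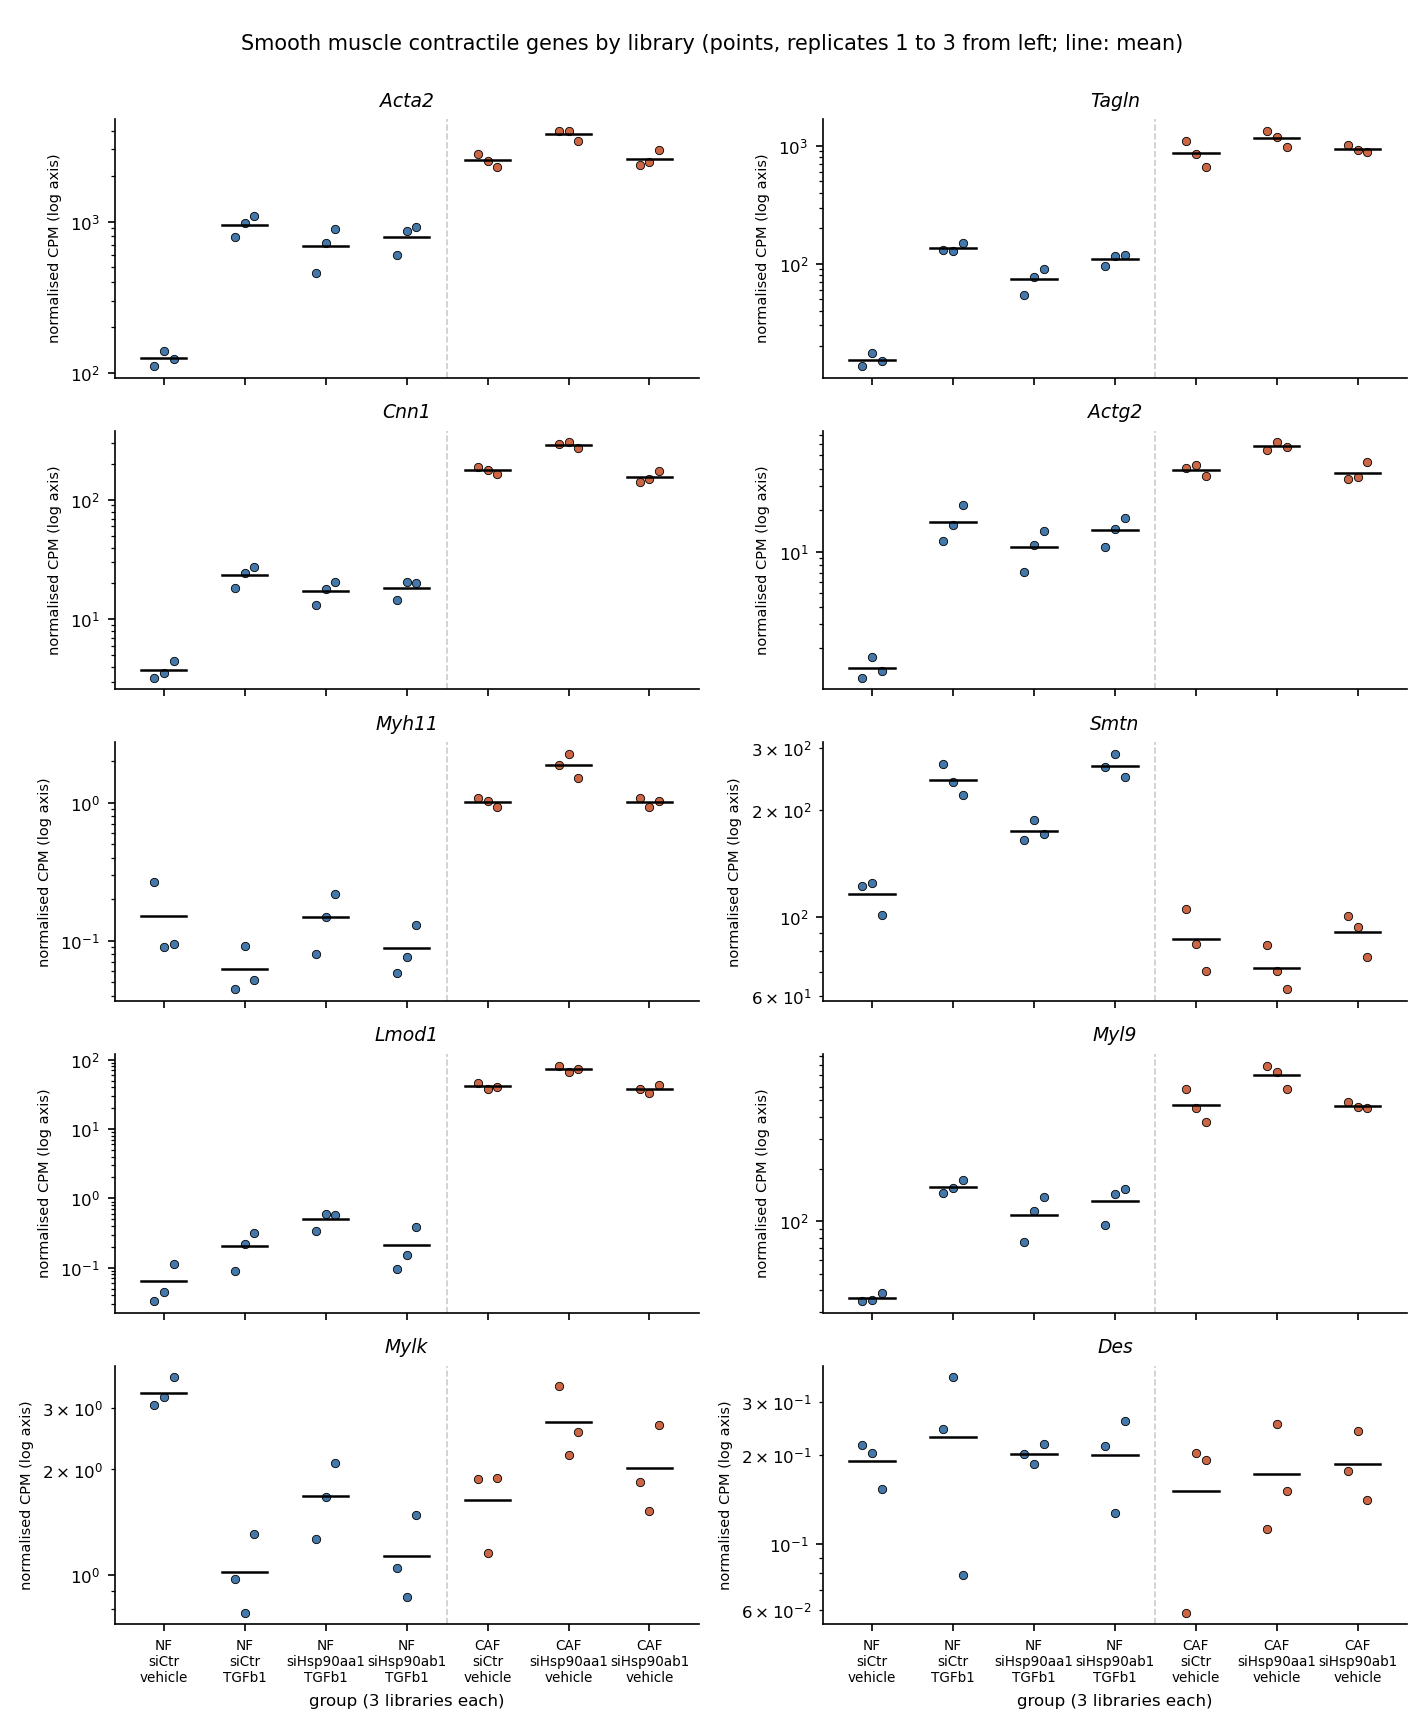
Normalised CPM (log axis) of each of the 10 genes in every library; points are libraries and bars are group means. Acta2, Tagln, Cnn1, Actg2 and Myl9 rise from NF with vehicle through NF with TGFb1 to CAF, Lmod1 and Myh11 stand apart in CAF, Smtn is highest in the NF groups with TGFb1, and Des lies near 0.2 CPM throughout.

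Levels of different genes are compared per transcript length, in deposited TPM. In CAF with siCtr the mean TPM was 2904 for Acta2, 1138 for Tagln, 965 for Myl9 and 148 for Cnn1. Actg2, the enteric muscle actin, had 62.1 TPM, Smtn 55.3 TPM and Lmod1 19.9 TPM. Mylk, Myh11 and Des, the kinase, the muscle myosin heavy chain and the intermediate filament protein of muscle, had 0.415, 0.290 and 0.126 TPM. CAF therefore carried the actin and light chain messages at high levels and the heavy chain and kinase messages at levels below 1 TPM. In NF with vehicle Acta2 was again the highest at 135 TPM, followed by Myl9 at 69.2 TPM, Smtn at 68.7 TPM and Tagln at 18.9 TPM. The remaining 6 genes were at 3.00 TPM or below in NF with vehicle.

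TGFb1 in NF raised 6 of the 10 genes and lowered 1 at an adjusted p under 0.05. The 6 are both muscle actins, the actin binders Tagln, Cnn1 and Smtn, and the light chain Myl9, and the gene that fell is Mylk. Among all genes tested, 14.6% were called higher and 14.4% lower. The median log2 difference of the 10 genes was 1.88, beside -0.03 over all genes. All tests are edgeR quasi-likelihood tests with Benjamini-Hochberg adjustment over all genes, and errors of log2 differences are standard errors. The fit has no batch term, and a fit with the replicate number as a block is given as an alternative.

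Acta2 (chr19:34241090-34255590, minus strand, coordinates here and below from GRCm38), the actin that defines myofibroblasts, had 110, 140 and 124 CPM in NF with vehicle and 784, 978 and 1094 CPM with TGFb1. The groups lay far apart, and the log2 difference was 2.93 ± 0.21, a 7.64-fold rise (adjusted p = 1.45e-08). Actg2 (chr6:83512905-83536265, minus strand) had 1.22, 1.73 and 1.37 CPM with vehicle and 12.0, 15.7 and 21.6 CPM with TGFb1. Its log2 difference of 3.52 ± 0.27 (adjusted p = 2.46e-08) was the largest of the 10 genes. The actin genes are near-identical in their coding parts, so how reads were divided among them is uncertain.

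Tagln (chr9:45929619-45936058, minus strand) encodes transgelin, an actin-bundling protein. It had 13.5, 17.6 and 14.9 CPM with vehicle and 131, 128 and 151 CPM with TGFb1, a log2 difference of 3.16 ± 0.20 (adjusted p = 2.94e-09). Cnn1 (chr9:22099216-22109630, plus strand) encodes calponin, which binds actin and restrains the myosin motor. Its 3.24, 3.57 and 4.46 CPM with vehicle became 18.3, 24.7 and 27.6 CPM, a log2 difference of 2.65 ± 0.19 (adjusted p = 1.08e-08). Smtn (chr11:3517523-3540612, minus strand), which encodes the actin-binding protein smoothelin, was already abundant with vehicle, at 122, 124 and 101 CPM. It reached 271, 240 and 221 CPM with TGFb1, a rise of 1.07 ± 0.14 on the log2 scale (adjusted p = 1.5e-05), and no library of one group reached the range of the other.

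Lmod1 (chr1:135324807-135368065, plus strand), whose product leiomodin nucleates actin filaments, was barely detected in NF, with 2 to 32 counts per library and at least 10 counts in 6 of 12 NF libraries. It had 0.0331, 0.0449 and 0.114 CPM with vehicle and 0.0888, 0.218 and 0.314 CPM with TGFb1, and the groups overlapped. The log2 difference of 1.64 ± 0.62 missed the threshold (adjusted p = 0.057). DESeq2 called it (adjusted p = 0.0113), and so did edgeR without the first TGFb1 library (0.0242) or the third vehicle library (0.0344).

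The myosin system moved in both directions. Myl9 (chr2:156775420-156781658, plus strand), the regulatory light chain of muscle and non-muscle myosin, had 34.8, 35.1 and 38.7 CPM with vehicle and 147, 155 and 173 CPM with TGFb1, a log2 difference of 2.13 ± 0.21 (adjusted p = 4.58e-07). Mylk (chr16:34745210-35002420, plus strand), the gene of the kinase that phosphorylates this light chain, went the other way, from 3.05, 3.21 and 3.66 CPM to 0.977, 0.782 and 1.31 CPM. Every TGFb1 library was below every vehicle library, and the log2 difference was -1.70 ± 0.29 (adjusted p = 0.000209). The Mylk value is for the whole gene, which also gives rise to a long non-muscle form and to telokin. Myh11 (chr16:14194535-14291372, minus strand), the smooth muscle myosin heavy chain, had 0.265, 0.0898 and 0.0953 CPM with vehicle and 0.0444, 0.0909 and 0.0523 CPM with TGFb1. It had at least 10 counts in 1 of 12 NF libraries and was tested only through its counts in CAF, and its log2 difference of -1.23 ± 0.49 missed the threshold (adjusted p = 0.0706). Without the second or the third vehicle library it was called lower (adjusted p = 0.0394 and 0.042).

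Des (chr1:75360329-75368579, plus strand), which encodes desmin, had 190 counts in all 21 libraries together and group means between 0.151 and 0.229 CPM. It passed no test in any comparison, and at 3 to 20 counts per NF library and 4 to 11 per CAF library only large changes could have been detected. In bulk RNA a change in the share of cells that express a gene and a change in RNA per cell cannot be told apart.

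CAF with siCtr stood above NF with vehicle in 7 of the 10 genes and below them in 2, where 31.6% of all genes tested were higher and 30% lower. Myh11, among the 7, was tested only through its counts in CAF. The median of the 10 genes was 4.03 on the log2 scale, beside 0 over all genes. Acta2 had 2814, 2531 and 2306 CPM in CAF, 20.5-fold the level in NF with vehicle (log2 4.35 ± 0.23, adjusted p = 1.41e-11). Actg2 had 40.3, 42.5 and 35.1 CPM, a log2 difference of 4.78 ± 0.28 (adjusted p = 6.19e-11). No CAF library overlapped an NF library for either actin.

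The actin binders Tagln and Cnn1 differed more than the actins. Tagln had 1109, 859 and 668 CPM in CAF, 57.4-fold the NF level (log2 5.84 ± 0.22, adjusted p = 2.66e-13). Cnn1 had 189, 178 and 166 CPM, 47.3-fold the NF level (log2 5.56 ± 0.20, adjusted p = 1.55e-13). Lmod1 gave the widest gap of the 10, with 45.8, 37.4 and 40.0 CPM in CAF. Its 3 CAF libraries held 6512 counts and the 3 NF libraries 10 counts, a ratio of 661 after scaling for depth, with an exact 95% interval of 359 to 1379 that covers counting error only (adjusted p = 1.79e-13).

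Smtn ran against the other actin binders. It had 105, 83.9 and 70.6 CPM in CAF, a log2 difference of -0.42 ± 0.14 from NF with vehicle (adjusted p = 0.0141), and the libraries of the 2 groups overlapped. The call was lost without the second NF vehicle library (adjusted p = 0.0531), without the third CAF library (0.0863) and in a fit of these 2 groups alone (0.0562).

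In the myosin system, Myl9 had 581, 454 and 375 CPM in CAF, 13.0-fold the NF level (log2 3.70 ± 0.22, adjusted p = 8.37e-11). Myh11 had 1.09, 1.04 and 0.936 CPM in CAF, from 159 counts against 25 in NF, a ratio of 6.45 with an exact 95% interval of 4.22 to 10.3 (adjusted p = 5.66e-06). It passed the filter only through its counts in CAF, so this call is not separate support for a higher level there. The call was kept under all 13 alternatives, a fit with no filter among them. Mylk was lower in CAF, with 1.88, 1.15 and 1.89 CPM and a log2 difference of -1.0 ± 0.28 (adjusted p = 0.00437). The gene of the kinase was lower where the gene of its substrate was higher, as with TGFb1 in NF. Both comparisons share the NF vehicle libraries. Summed myoepithelial and luminal markers were also higher in CAF than in NF, mainly through Cdh3 at 19.0 CPM and Krt19 at 13.5 CPM, while Krt5, Krt14 and Krt17 were at or near 0 in CAF. Trp63 went the other way, from 3.51 CPM in NF with vehicle to 1.60 CPM in CAF. Of the 4 myoepithelial markers tested 2 were called higher and 2 lower in CAF, where 31.6% of all genes were higher and 30% lower. The part of myoepithelial and luminal cells in the CAF levels was not tested.

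Against NF already treated with TGFb1, CAF were still higher in 8 of the 10 genes and lower in 1, with 30% of all genes tested higher and 28.9% lower. The excess was 1.42 ± 0.20 for Acta2 (adjusted p = 7.49e-06) and 1.26 ± 0.23 for Actg2 (adjusted p = 0.00011) on the log2 scale. It was larger for Tagln, at 2.69 ± 0.19 (adjusted p = 1.27e-09), and Cnn1, at 2.92 ± 0.18 (adjusted p = 1.37e-10). Myl9 differed by 1.57 ± 0.20 (adjusted p = 2.36e-06). The widest gaps of the 10 genes were those of Lmod1 and Myh11. Lmod1 had 6512 counts in CAF against 28, a ratio of 207 (143 to 312), and Myh11 had 159 against 9, a ratio of 15.7 (8.09 to 35.1). Myh11, counted among the 8, again passed the filter only through its counts in CAF. Smtn was lower in CAF than in TGFb1-treated NF by a log2 difference of -1.49 ± 0.14 (adjusted p = 5.41e-08). Mylk was higher by 0.70 ± 0.29 (adjusted p = 0.0434) with overlapping libraries, and that call was lost without the first or the third CAF library (0.13 and 0.126), without the first or the second NF library (0.0997 and 0.169), in a fit of the 2 groups alone (0.0844), with library totals as the only scaling (0.0585), with limma on TPM (0.115) and with no filter (0.0521).

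Ordered by level, Acta2, Tagln, Cnn1, Actg2 and Myl9 had the 3 CAF groups on top, then the 3 NF groups with TGFb1, then NF with vehicle. For each of these 5 genes the lowest CAF group differed from the highest NF group, and the lowest TGFb1 group from vehicle. The ratio of the highest to the lowest group mean was 30.4 for Acta2, 76.4 for Tagln and 77.2 for Cnn1. Smtn had its own order, with the 3 TGFb1 groups on top, NF with vehicle next and the 3 CAF groups last. For Mylk and Des no neighbouring groups differed.

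Knockdown of Hsp90aa1 in NF with TGFb1 went with lower Tagln and Smtn and higher Lmod1, and these were the 3 genes called. Among all genes tested 14.8% were higher and 13.5% lower, so in this fit without a batch term the share called was near that of all genes. Tagln had 54.8, 77.0 and 90.9 CPM, all below the 131, 128 and 151 CPM of the control (log2 -0.88 ± 0.18, adjusted p = 0.00174), and it was called without any single library. Smtn had 165, 187 and 172 CPM, again all below the control (log2 -0.48 ± 0.14, adjusted p = 0.015). That call was lost without the first control library (0.0758) or the first knockdown library (0.0629). Lmod1 rose from 28 to 70 counts over 3 libraries, a ratio of 2.46 with an exact interval of 1.57 to 3.96 (log2 1.29 ± 0.42, adjusted p = 0.0285). It was lost without the first or second control library (0.135 and 0.0629), the second or the third knockdown library (0.11 and 0.0697), in a fit of the 2 groups alone (0.0694) and with limma on TPM (0.291).

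The other genes that TGFb1 raised lay lower with siHsp90aa1 without passing the threshold. Acta2 had 453, 719 and 887 CPM against 784, 978 and 1094 CPM, a log2 difference of -0.47 ± 0.20 (adjusted p = 0.0815) with overlapping groups. Myl9 had 76.5, 115 and 138 CPM (log2 -0.53 ± 0.20, adjusted p = 0.0516). Cnn1 and Actg2 differed by -0.44 ± 0.17 (adjusted p = 0.0592) and -0.61 ± 0.23 (adjusted p = 0.0569). Per the labels the replicate numbers mark batches. In each of the 3 batches Acta2, Tagln, Cnn1, Actg2, Smtn and Myl9 were lower with siHsp90aa1, and Lmod1, Mylk and Myh11 were higher. Myh11 had 9 counts over the 3 control libraries and did not pass (adjusted p = 0.112). The share of all genes with the same direction in all 3 batches is not given here. The batch differences of Acta2 were -0.79, -0.44 and -0.30 and those of Tagln -1.25, -0.73 and -0.74 on the log2 scale.

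With the replicate number as a block, 8 of the 10 genes passed in this comparison, 6 lower and 2 higher. The share of all genes that passed with the block is not given here. Of all genes called with it, 51.9% were higher. The added calls were Acta2 (adjusted p = 0.033), Cnn1 (0.0161), Actg2 (0.0113), Myl9 (0.0459) and, higher, Mylk (0.0159). Without the third siHsp90aa1 library 6 genes passed, all lower, with Acta2 (0.017), Cnn1 (0.0261), Actg2 (0.0174) and Myl9 (0.0171) added and Lmod1 lost. DESeq2 without a batch term called 6. The number of calls in this comparison thus moved with the fit and with single libraries, and the cause was not tested.

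With siHsp90ab1 in NF with TGFb1, 0 of the 10 genes passed, none at an unadjusted p under 0.05 and none with DESeq2, limma or the block. Of all genes tested 1.06% were higher and 1.62% lower. The log2 differences ran from -0.35 to 0.45, the lowest adjusted p was 0.406, and the 95% intervals spanned -1.22 to 1.59, with the widest for the low-count genes. Acta2 had 603, 861 and 915 CPM (log2 -0.26, interval -0.68 to 0.15) and Tagln 94.8, 117 and 119 CPM (log2 -0.31, interval -0.69 to 0.08). Within each of the 3 batches Acta2, Tagln, Cnn1, Actg2 and Myl9 were lower with siHsp90ab1 and Mylk was higher. The other 4 genes were mixed, and the share of all genes with the same direction in all 3 batches is not given here. The batch differences of Acta2 were -0.38, -0.19 and -0.26 and those of Tagln -0.46, -0.13 and -0.34 on the log2 scale, and both knockdowns were compared with the same control libraries.

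Compared directly, siHsp90aa1 gave lower Tagln (log2 -0.57 ± 0.18, adjusted p = 0.0209) and Smtn (-0.61 ± 0.14, adjusted p = 0.00253) than siHsp90ab1 in NF with TGFb1, and higher Lmod1 (1.17 ± 0.41, adjusted p = 0.0329). Here 17.7% of genes were higher and 16.4% lower, and the block added Mylk (0.0423). Smtn kept the call without any single library. Tagln lost it without the first siHsp90aa1 library or the second or the third siHsp90ab1 library (0.0665 to 0.119). Lmod1 lost it without the first or the second siHsp90ab1 library or the second or the third siHsp90aa1 library (0.0803 to 0.166, log2 values from 0.80 to 2.01 over the libraries left out), in a fit of the 2 groups alone (0.0991) and with limma on TPM (0.291).

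NF with TGFb1 and either knockdown stood above NF with vehicle in Acta2, Tagln, Cnn1, Actg2, Myl9, Smtn and Lmod1 and below it in Mylk, where 15.1% and 15% of genes were higher and lower with siHsp90aa1, and 19.7% and 21.5% with siHsp90ab1. Acta2 was above vehicle by 2.46 ± 0.21 with siHsp90aa1 and by 2.67 ± 0.21 with siHsp90ab1, and Tagln by 2.28 ± 0.19 and 2.85 ± 0.20 on the log2 scale. Lmod1, which had missed the threshold for TGFb1 with siCtr, was above vehicle by 2.92 ± 0.52 with siHsp90aa1 (adjusted p = 0.000384) and by 1.75 ± 0.61 with siHsp90ab1 (adjusted p = 0.0276). The first call was lost with limma on TPM (0.0895). The second was lost without the first or the second vehicle library or the third siHsp90ab1 library (0.0721 to 0.307, log2 values from 0.91 to 2.45), in a fit of the 2 groups alone (0.0956) and with limma on TPM (0.528). Mylk with siHsp90aa1 lost its call without the first siHsp90aa1 library (0.0632). These comparisons share the vehicle libraries with the TGFb1 comparison. A knockdown in NF without TGFb1 was not analysed here.

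Knockdown of Hsp90aa1 in CAF went with higher levels of 5 of the 10 genes and lower levels of none, where 12.5% of all genes were higher and 12.9% lower. The 5 are Acta2, Cnn1, Lmod1, Myl9 and Myh11, and the median of the 10 genes was 0.57 on the log2 scale, beside 0.03 over all genes. Cnn1 had 293, 304 and 274 CPM against 189, 178 and 166 CPM in the control (log2 0.71 ± 0.16, adjusted p = 0.00425). Lmod1 had 81.8, 65.5 and 72.3 CPM against 45.8, 37.4 and 40.0 CPM (log2 0.83 ± 0.19, adjusted p = 0.00393). For both genes every knockdown library lay above every control library, and the call was kept without any single library.

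The other 3 calls were less firm. Acta2 had 3987, 3965 and 3414 CPM against 2814, 2531 and 2306 CPM (log2 0.57 ± 0.20, adjusted p = 0.0407), with no overlap, and lost the call without any of the 6 libraries (0.0538 to 0.105). Myh11 had 1.89, 2.26 and 1.51 CPM against 1.09, 1.04 and 0.936 CPM (log2 0.88 ± 0.32, adjusted p = 0.0492) and did likewise (0.0545 to 0.161). Myl9 had 792, 726 and 577 CPM against 581, 454 and 375 CPM (log2 0.57 ± 0.20, adjusted p = 0.0398), and the lowest knockdown library lay just below the highest control library. It was lost without the second or the third control library or the first or second knockdown library (0.0977 to 0.135). Tagln, at 1347, 1187 and 983 CPM, did not pass (log2 0.42 ± 0.18, adjusted p = 0.103) except without the first control library (0.0285), and Smtn (log2 -0.26 ± 0.14, adjusted p = 0.182) was called lower without the third control library (0.044).

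Within each of the 3 batches 8 genes were higher with siHsp90aa1 in CAF and Smtn was lower. Acta2 was at 0.50, 0.65 and 0.57 and Cnn1 at 0.63, 0.77 and 0.72 on the log2 scale. The share of all genes with the same direction in all 3 batches is not given here. With the replicate number as a block 8 genes passed, 7 higher and 1 lower, and the added calls were Actg2 (adjusted p = 0.0154), Mylk (0.00988) and, lower, Smtn (0.0409). The share of all genes that passed with the block is not given here, and 51.8% of all genes called with it were higher. Scaling by library totals alone left 2 of the 5 calls. It moved the share of all called genes that were higher from 49.1% to 30.7% in this comparison, from 50.4% to 39.8% for TGFb1 in NF, and from 49.6% to 32.1% for siHsp90aa1 against siHsp90ab1 in CAF. With that scaling the median of all genes for CAF against NF was -0.11. The summed myoepithelial markers were 27.0 to 41.0 CPM with siHsp90aa1 and 16.4 to 26.0 CPM in the CAF control, mainly Cdh3, which was at 31.5 and 19.0 CPM. Their part in the rise of the contractile genes was not tested.

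With siHsp90ab1 in CAF 0 of the 10 genes passed, none at an unadjusted p under 0.05 and none with DESeq2, limma or the block, and 0.466% of all genes were higher and 0.433% lower. The log2 differences ran from -0.20 to 0.38 with a lowest adjusted p of 0.855, and the 95% intervals spanned -0.71 to 1.47. Acta2 had 2366, 2466 and 2955 CPM, a log2 difference of 0.03 with an interval of -0.39 to 0.44. None of the 10 genes moved in the same direction in all 3 batches, and the share of all genes that did is not given here.

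Against siHsp90ab1, siHsp90aa1 in CAF gave higher Cnn1 (log2 0.91 ± 0.16, adjusted p = 0.00073), Lmod1 (0.95 ± 0.19, adjusted p = 0.00162), Myl9 (0.59 ± 0.20, adjusted p = 0.0343), Actg2 (0.64 ± 0.22, adjusted p = 0.0421), Myh11 (0.89 ± 0.32, adjusted p = 0.0473) and Acta2 (0.55 ± 0.20, adjusted p = 0.0485). In all 13.1% of genes were higher and 13.3% lower. Cnn1 and Lmod1 kept the call without any single library and the other 4 did not, and the block added a lower Smtn (adjusted p = 0.011).

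**Figure D2:**
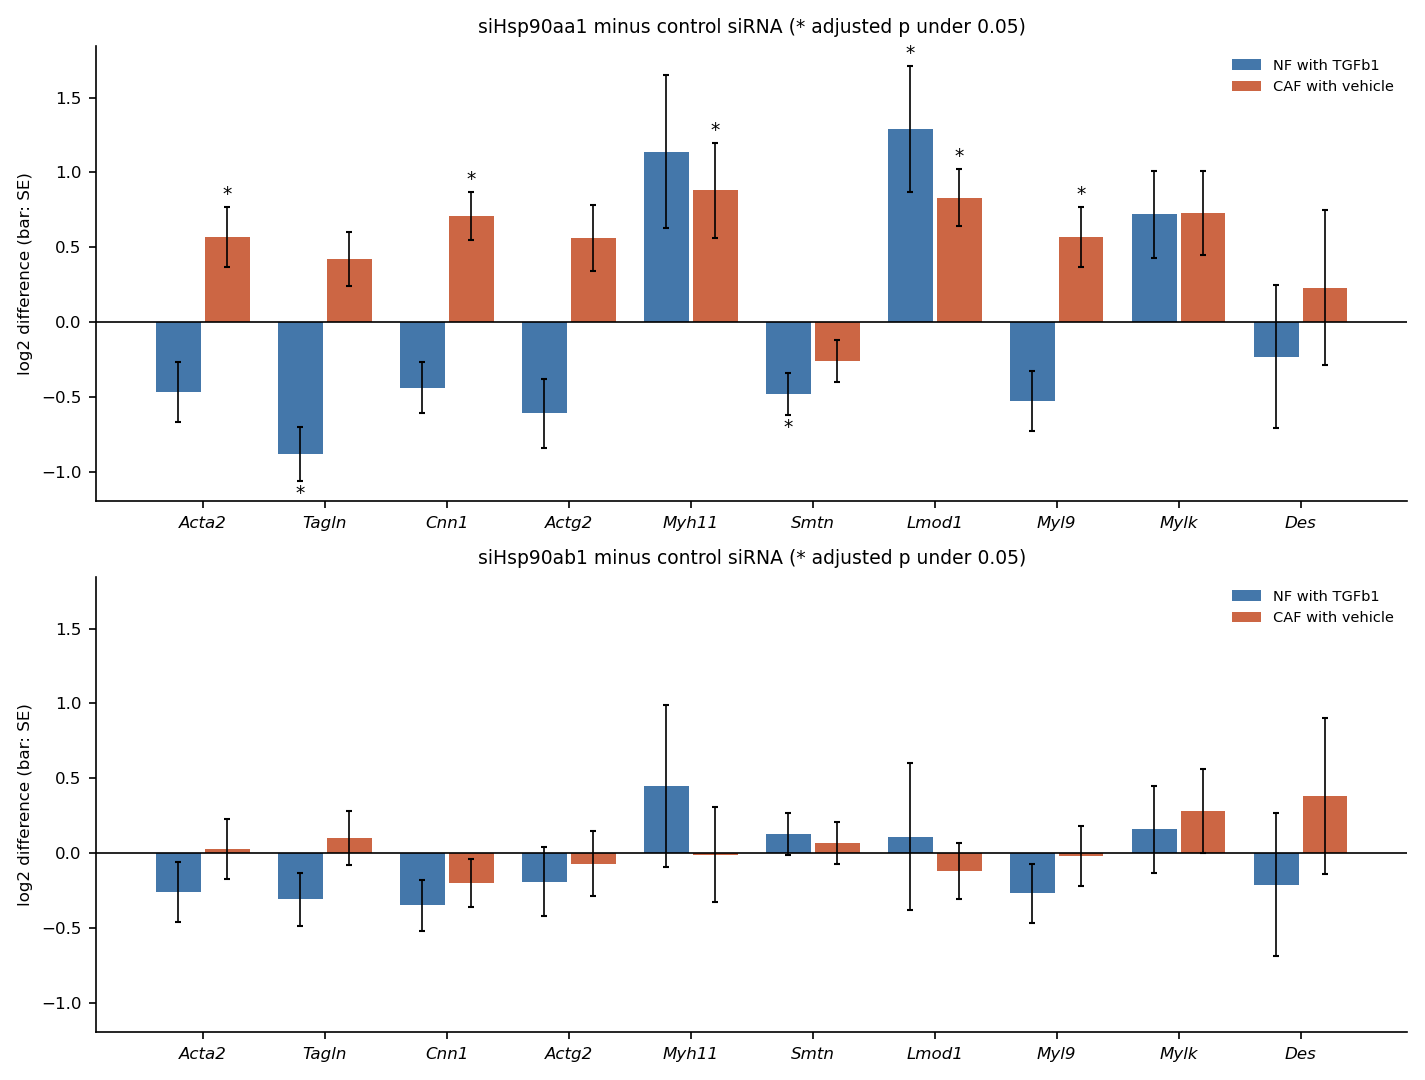
Log2 difference with standard error of each of the 10 genes for siHsp90aa1 and siHsp90ab1, each against siCtr, in NF with TGFb1 and in CAF. With siHsp90aa1 Acta2, Tagln, Cnn1, Actg2 and Myl9 lie below 0 in NF and above 0 in CAF, and with siHsp90ab1 the log2 differences stay between -0.35 and 0.45.

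The difference between the siHsp90aa1 effects in CAF and in NF with TGFb1 was tested in the same fit. For 5 of the 10 genes the effect was higher in CAF, and for none lower, where 2.44% and 3.02% of all genes were called. Tagln differed by 1.30 ± 0.26 (adjusted p = 0.00691) and Cnn1 by 1.15 ± 0.24 (adjusted p = 0.00896) on the log2 scale, and both calls held without any single library. Myl9 differed by 1.10 ± 0.28 (adjusted p = 0.0256), Acta2 by 1.04 ± 0.28 (adjusted p = 0.0353) and Actg2 by 1.17 ± 0.32 (adjusted p = 0.0389). Acta2 was lost without any of 8 of the 12 libraries (0.063 to 0.0971), Actg2 without any of 10 (0.0553 to 0.12) and Myl9 without any of 7 (0.0523 to 0.07). Lmod1 was higher with siHsp90aa1 in each line, and its difference between them was -0.45 (interval -1.42 to 0.52, adjusted p = 0.644). Smtn had -0.48 in NF, which passed, and -0.26 in CAF, which did not (adjusted p = 0.182), with a difference of 0.22 (interval -0.20 to 0.63, adjusted p = 0.594). NF received TGFb1 and CAF vehicle, so the line and the cytokine cannot be told apart. With library totals as the only scaling, the share of all called genes with a higher effect in CAF went from 44.7% to 22.6%. For siHsp90ab1 0 of the 10 genes differed, none at an unadjusted p under 0.05 and none with DESeq2, limma or the block, and 0.00657% and 0% of all genes were called.

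The muscle isoform as a share of its family was read in TPM. Acta2 and Actg2 made up 2.52% ± 0.116 (SD, n = 3) of the 6 actin genes in NF with vehicle, 9.55% ± 1.49 with TGFb1 and 26.8% ± 3.34 in CAF. With 3 libraries against 3 the exact two-sided permutation test cannot go below p = 0.1, which both differences from vehicle reached, and over 21 such tests the adjusted value was 0.1615. With siHsp90aa1 the share was 9.28% ± 2.25 in NF with TGFb1, a difference of -0.267 percentage points (exact permutation p = 1), although Tagln and Smtn fell there. The cytoplasmic actins Actb and Actg1 were also lower, at 4033 and 3158 CPM against 5224 and 4419 CPM, short of the threshold (adjusted p = 0.0973 and 0.0791). In CAF the share was 30.9%, 32.3% and 36.3% with siHsp90aa1 and 24.6%, 25.2% and 30.7% in the control. All knockdown libraries were above all controls by a narrow margin, and the difference was 6.35 points (exact permutation p = 0.1).

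Myl9 was 7.47% ± 1.26 of the regulatory light chain genes Myl9, Myl12a and Myl12b in NF with vehicle, 20.1% ± 1.29 with TGFb1 and 45.5% ± 3.60 in CAF. With siHsp90aa1 it was 15.5% ± 3.45 in NF with TGFb1 and 50.1% ± 2.28 in CAF. The heavy chain stayed almost wholly non-muscle in every group. Myh11 was 0.00848% of Myh11, Myh9 and Myh10 in NF with vehicle, 0.00157% with TGFb1, 0.0308% in CAF and 0.0475% in CAF with siHsp90aa1.

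**Figure D3:**
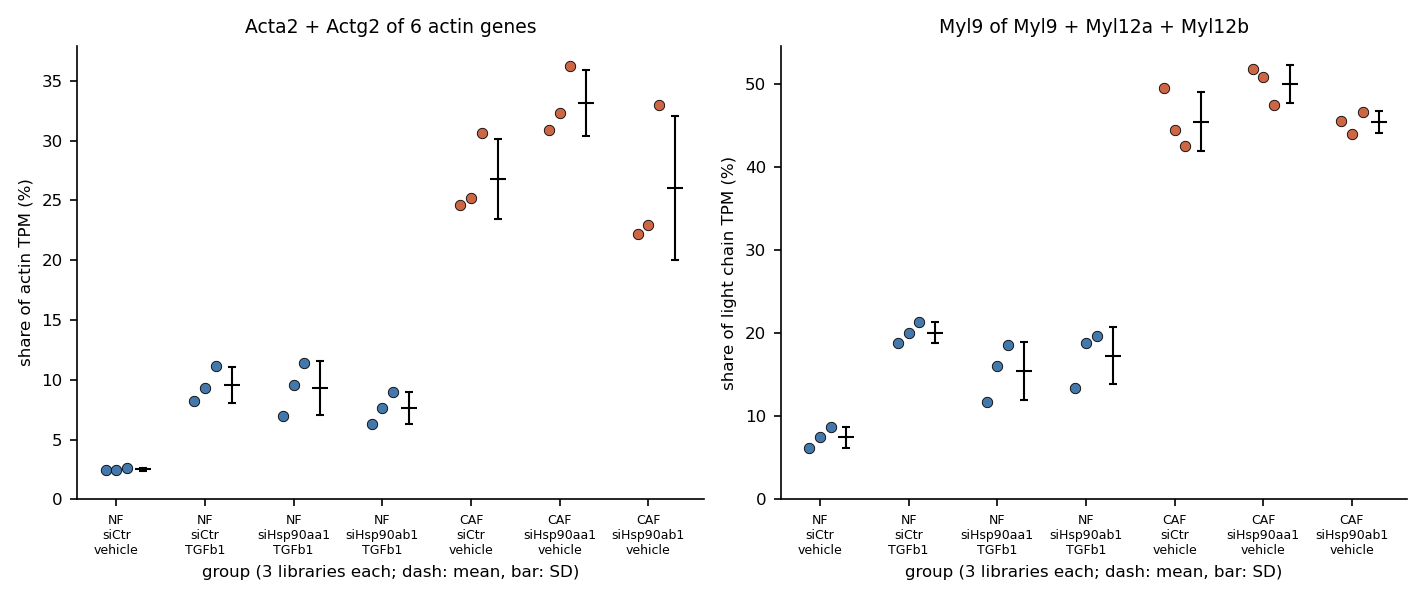
Share in percent of muscle actin (Acta2 and Actg2 of 6 actin genes) and of Myl9 among the regulatory light chains, from TPM. Points are libraries, dashes are group means and bars are SD. Muscle actin goes from 2.52% in NF with vehicle to 26.8% in CAF and Myl9 from 7.47% to 45.5%.

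Genes that control this set were followed in a list of 18 regulators, of which 13 were tested. TGFb1 in NF raised 6 and lowered 1, where 14.6% of all genes rose and 14.4% fell. Srf itself rose by 0.90 ± 0.18 on the log2 scale (adjusted p = 0.000872), Mkl1, the gene of a myocardin-related coactivator, by 0.32 ± 0.06 (adjusted p = 0.000365), Csrp1, a LIM protein of smooth muscle, by 1.39 ± 0.08, and the Notch ligand gene Jag1 by 3.46 ± 0.38. In CAF 7 of the 13 were higher than in NF and 2 lower, where the shares of all genes were 31.6% and 30%. Among them were Csrp1 at 1.2 ± 0.08, Tead3 at 1.44 ± 0.17 and Mkl1 at 0.43 ± 0.06, and Klf5 lower at -2.12 ± 0.30. Srf was not among them (log2 -0.24 ± 0.18, adjusted p = 0.261). Myocd, the gene of myocardin, had no counts in 20 of 21 libraries.

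With siHsp90aa1 in NF with TGFb1, 1 regulator rose and 3 fell of the 13 tested, where 14.8% of all genes rose and 13.5% fell, so the number called was near the share of all genes. Those that fell were Srf (-0.53 ± 0.18, adjusted p = 0.0325), Jag1 (-1.38 ± 0.35, adjusted p = 0.00641) and Csrp1 (-0.31 ± 0.08, adjusted p = 0.00661), and Prrx1, a mesenchymal homeobox gene, rose by 0.71 ± 0.19 (adjusted p = 0.00998). In CAF 5 of the 13 rose and 0 fell, where 12.5% of all genes rose and 12.9% fell, with Csrp1 at 0.70, Klf4 at 1.28, Gata6 at 0.55 and Mkl1 at 0.24. Srf was level there (0.02 ± 0.18, adjusted p = 0.961). The siHsp90aa1 effect on Csrp1 was higher in CAF than in NF by 1.01 ± 0.11 (adjusted p = 0.000113) and that on Jag1 by 2.24. These were the 2 calls in this list, where the effect was higher for 2.44% of all genes and lower for 3.02%. With siHsp90ab1 0 of the 13 passed in either line. Of all genes, 1.06% were higher and 1.62% lower with it in NF, and 0.466% and 0.433% in CAF, so few calls would be found in any list of this size. Srf in NF with siHsp90ab1 had -0.53 ± 0.18 (adjusted p = 0.143).

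A wider list of 30 contractile apparatus genes had 28 tested. TGFb1 raised 14 and lowered 3, where 14.6% of all genes rose and 14.4% fell. Among those that rose were Pdlim7 and Palld, genes of stress fibre proteins, at 1.79 and 1.60, the focal adhesion gene Tns1 at 1.90 and the actin crosslinker gene Flna at 1.17. CAF were higher in 22 and lower in 2, where 31.6% and 30% of all genes were, with Tns1 at 3.62 and Synpo2, which encodes an actin-bundling muscle protein, at 5.76. With siHsp90aa1 in NF with TGFb1 4 of the 28 rose and 4 fell, a share near the 14.8% and 13.5% of all genes. The smallest p belonged to Rock1, the gene of a kinase that promotes light chain phosphorylation, at -1.04 ± 0.14, while Synm, an intermediate filament gene, rose by 2.25 ± 0.38. In CAF 9 rose and 1 fell, where 12.5% of all genes rose and 12.9% fell, with Rhoa at 0.58, Tpm1 at 0.58, Fhl2 at 0.56 and Dmpk at 0.76. With siHsp90ab1 0 passed in NF, where 1.06% of all genes rose and 1.62% fell. In CAF 1 passed, Rhoa at 0.45 (adjusted p = 0.00668), where 0.466% of all genes rose and 0.433% fell.

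Paralogs used outside smooth muscle were followed as well. Of 26 listed 20 were tested, and TGFb1 raised 12 and lowered 2, where 14.6% of all genes rose and 14.4% fell. Among those that rose were the non-muscle heavy chain Myh9 at 1.43, Acta1, the skeletal muscle actin, at 2.86, Cnn2 at 1.01 and Myl12a at 0.70. CAF were higher in 12 and lower in 3, where 31.6% and 30% of all genes were, with Vim at 1.04, Cnn2 at 1.28 and Myh9 at 1.04. With siHsp90aa1 in NF with TGFb1 1 of the 20 rose and 7 fell, where 14.8% of all genes rose and 13.5% fell, with Cnn3 at -0.56, Myh9 at -0.45, Nes at -1.36 and Acta1 at -1.15. In CAF 5 rose and 1 fell, near the share of all genes in sum (12.5% and 12.9%), with Cnn2 at 0.46, Myl12a and Myl6 at 0.36 each, and Nes at -1.11.

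The genes whose pattern over the 7 group means came nearest to each contractile gene were found among 15220 other tested genes. The measure is the root mean square difference of log2 CPM after centring, where 0 is the same pattern. For Acta2 the nearest were Crispld2 (0.217), Trpv2 (0.261), Pde1b (0.294), Tarm1 (0.325), Lrrc75b (0.325) and Tns1 (0.362). Within the set Acta2 and Actg2 differed by 0.182, Tagln and Cnn1 by 0.254 and Acta2 and Myl9 by 0.272. Actg2 was nearest to Crispld2 (0.157) and Tarm1 (0.294), Myl9 to Cldn23 (0.214) and Tns1 (0.235), Cnn1 to Mfap4 (0.327) and Ckb (0.411), and Tagln to Npas4 (0.368) and Mfap4 (0.384). Lmod1 had no close neighbour, with Col11a1 at 0.534 and Plcl1 at 0.557. Smtn was nearest to 5033430I15Rik (0.0936) and Sh2b2 (0.106), Mylk to Sparcl1 (0.0925) and Hspa1b (0.176), Myh11 to Bace2 (0.154) and Esr1 (0.157), and Des to Chchd3 (0.0533) and Swt1 (0.0578). Small values are easier to reach for genes that vary little over the groups, such as Des.

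Annotated genes on the opposite strand overlap Tagln, Smtn, Lmod1, Mylk and Des, among them Pcsk7 at Tagln. The libraries were stranded, but whether the counting used strand is not given in the sources used here, so reads of these pairs may be mixed.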

How the data were processed

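RNA sequencing libraries of 7 groups with 3 replicates each were grouped by the labels. Per the submitters' processing notes, Salmon and STAR were used with GRCm38, and no version or parameter of either is given there. The estimated counts per gene that the authors deposited are not normalised, and 10.9% of them are not whole. Rounding them shifted no value by more than 0.5. TPM, as deposited by the authors, is scaled for transcript length and served here to compare levels between genes and in 1 alternative test.

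Genes were tested with edgeR 4.0.16 in R 4.3.3 (TMM factors, filterByExpr by group with minimum count 10 and minimum total 15, all 21 libraries, 1 coefficient per group, quasi-likelihood F test). P-values were adjusted over 15230 genes in each of 13 comparisons and called under 0.05. Standard errors were computed from the F statistic (log2 difference over its root), with a prior count of 0.125. Levels are TMM-normalised CPM. Count ratios have exact 95% intervals for counting error only. DESeq2 1.42.0, limma 3.58.1 on log2(TPM + 1), other scalings, no filter, a replicate block, the compared groups alone and leaving out each library were alternatives. The edgeR fit was also run on counts simulated without a batch effect, and the outcome is not given here.

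Between replicates, chi-square over its degrees of freedom was 16.7 to 150, so no library was a duplicate. The labels name the replicate number a batch, which pairs the libraries. The fit behind the reported calls did not use this pairing, and calls that changed with the replicate block depend on that choice. Deviations from the group means correlated with a mean r of 0.152 (-0.067 to 0.563) over 63 same-numbered pairs, 39 of them over 0.1. Over 126 other pairs the mean r was -0.076. Of the gene IDs 98.8% were matched to GENCODE vM21, which gave the coordinates; promoters came from RefSeq.

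The 10 genes, the gene lists and the markers were chosen with earlier results of these data known. All 10 genes were named in the comparisons, and from each list at most the 4 members with the smallest p; Srf, Actb, Actg1 and Myocd were named for their roles after their values were seen. For likeness, the 6 genes nearest to Acta2 and the 2 nearest to each other gene were named.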

Additional observations from a re-analysis of the deposited data

Results flagged for a closer look

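In 5 of the 10 genes the effect of siHsp90aa1 differed between CAF with vehicle and NF with TGFb1 by the interaction term of the edgeR quasi-likelihood fit, with the CAF effect minus the NF effect given here on the log2 scale. Acta2 differed by 1.04 (effects of 0.57 in CAF and -0.47 in NF), Tagln by 1.30 (0.42 and -0.88), Cnn1 by 1.15 (0.71 and -0.44), Actg2 by 1.17 (0.56 and -0.61) and Myl9 by 1.10 (0.57 and -0.53). In each batch all 5 genes were higher with siHsp90aa1 in CAF and lower with it in NF with TGFb1. The share of all genes that did so is not given here. Of these single effects Acta2, Cnn1 and Myl9 in CAF and Tagln in NF passed the threshold by themselves. CAF and NF also differed in cytokine, which cannot be told apart from the line.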

How the results depend on the processing

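Of 1810 values of the 10 genes under another processing choice, 1649 stayed on their side of the threshold with no called value turned, 123 lost the call and 37 gained it. Among these 1810, 66 values not called in the test as reported changed sign. In 1 further case a value not called as reported was called with the opposite sign. The siHsp90aa1 effect on Lmod1 in CAF minus that in NF was 0.56 with limma on log2(TPM + 1) (adjusted p = 0.0397), against -0.45 with edgeR (adjusted p = 0.644). Of 411 values that count calls over a comparison or give the actin share, 345 stayed within 1.5-fold or 1 SD. For siHsp90aa1 in NF with TGFb1, 3 of the 10 genes were called, against 8 with the replicate block, 6 with DESeq2 and 2 to 6 leaving out a library. For siHsp90aa1 in CAF 5 were called, against 8 with the block, 2 with library totals only, 3 with no filter, 3 with limma and 2 to 4 leaving out a library. The calls over all genes with the block are not given here for siHsp90aa1 in either line. For siHsp90aa1 against siHsp90ab1 the counts leaving out a library were 1 to 3 in NF (3 with all) and 2 to 5 in CAF (6 with all), and 3 in CAF with library totals only. For the siHsp90aa1 effect in CAF minus NF, 5 were called, against 3 with library totals only, 2 with the compared groups alone and 2 to 5 leaving out a library. Over all genes, siHsp90ab1 in NF gave 409 calls, 902 with the block, 709 with DESeq2 and 156 to 338 leaving out a library. In CAF it gave 137 calls, 360 with the block, 322 with DESeq2, 91 with limma, 3 with the compared groups alone and 47 to 105 leaving out a library. The siHsp90aa1 effect in CAF minus NF gave 832 calls, 1871 with the block, 1341 with DESeq2 and 453 to 962 leaving out a library, and that of siHsp90ab1 1, 3, 18 and 0 to 2, with 16 by limma. Leaving out a library gave 2468 to 4488 calls for siHsp90aa1 in CAF and 2508 to 4311 against siHsp90ab1 there. NF with TGFb1 and siHsp90aa1 against vehicle gave 4582 calls, and 3024 with the compared groups alone. The cause of these changes was not tested. Depth limits Des in all groups and Myh11 and Lmod1 in NF.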
